A study of Rattus norvegicus with 6 samples.

Results

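rno-miR-199a-3p, rno-miR-199a-5p and rno-miR-214-3p (written below without the rat prefix) are 3 mature miRNAs cut from the neighbouring hairpins mir-199a and mir-214. They were taken from the deposited count table by name, and are 3 of 442 distinct mature sequences and 3 of the 204 that carry an established miRNA name. The table came from small RNA sequencing of rat nucleus pulposus, the soft centre of a spinal disc. In the IDD group (3 libraries) disc degeneration had been induced by compression over 4 weeks, and the Sham group (3 libraries) is labelled as having K-wires for 4 weeks without mention of compression. The labels give no strain, sex or age of the rats, nor do they tie the libraries to animals, so p-values reflect only how far these samples spread, which may be technical. The study's design asks which miRNAs respond to mechanical load.

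In mouse, both hairpins lie in Dnm3os, a long noncoding RNA that runs opposite to the dynamin gene Dnm3, is switched on by Twist1 in mesenchyme, and is needed for normal skeletal growth. A miRNA represses mRNAs that pair with its seed, the stretch from base 2 to base 8, so the 2 arms of one hairpin act on different targets. miR-199a-3p is known to repress mTOR and, in mouse mesenchymal cells, to hold back cartilage differentiation through Smad1. miR-199a-5p is known to repress Caveolin-1 in human lung fibroblasts and HIF-1α in rat heart muscle cells. miR-214-3p is known to repress the histone methyltransferase Ezh2 in mouse muscle and ATF4 in mouse bone-forming cells.

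The sequences are shown as the table lists them, 5′ to 3′ with the seed in capitals, because another listed sequence shares one of the seeds. That sequence is miR-199a-3p without its last base. It carries a provisional name built from chromosome 3 and is called the 1-base shorter tag here.
miR-199a-3p: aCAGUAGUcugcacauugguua
1-base shorter tag: aCAGUAGUcugcacauugguu
miR-199a-5p: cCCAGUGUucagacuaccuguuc
miR-214-3p: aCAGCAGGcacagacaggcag

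All 3 named miRNAs matched a RefSeq mature sequence on the build GRCr8, and the shorter tag matched none. On that build the plus strand of chromosome 13 holds miR-199a-5p at chr13:77116255-77116277, miR-199a-3p at chr13:77116294-77116315 and miR-214-3p at chr13:77121713-77121733. All 3 lie inside the span of Dnm3, which runs on the minus strand. miR-199a-3p and miR-214-3p share their first 4 bases but not their seed. Among the listed sequences, the seed of miR-199a-3p occurred in 2, namely itself and the shorter tag, and the seeds of miR-199a-5p and miR-214-3p each occurred in 1. The other arm of mir-214 had 0 rows in the table under the name miR-214-5p. The RefSeq hairpin of mir-214 (GRCr8, plus strand, chr13:77121645-77121752) is shown with the counted 3p arm in capitals, since it is the stretch of this hairpin that the table counts.
mir-214 hairpin: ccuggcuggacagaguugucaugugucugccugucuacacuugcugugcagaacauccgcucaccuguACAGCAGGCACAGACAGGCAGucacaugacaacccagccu

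Tag counts summed to 169783 to 253807 per library. Established miRNAs held 77.8% to 83.1% of tags in IDD and 49.5% to 56.2% in Sham, so a share of all tags and a share of established tags can move in opposite directions. Of the marker lists, all 4 cartilage and disc miRNAs (miR-140 and miR-455) were listed and held 15.3% to 15.9% of established tags in IDD and 15.4% to 18.1% in Sham. Of these, miR-140-3p (log2 0.29, edgeR adjusted p = 0.0230, lost under 7 of 19 settings) and miR-455-3p (2.24-fold, adjusted p = 0.00423, lost under 2 of 18) rose. miR-140-5p (log2 0.27, edgeR adjusted p = 0.0681) and miR-455-5p (log2 −0.04, adjusted p = 0.916) did not pass. Of 7 skeletal muscle miRNAs 5 were listed. They held 48.0% to 52.2% in IDD and 40.4% to 40.9% in Sham, nearly all of it miR-1b. miR-206-3p (3.28-fold, edgeR adjusted p = 7.82e-05) and miR-1b (1.67-fold, adjusted p = 5.19e-05) rose, each lost under 0 of 19 settings. miR-1-3p also rose (1.67-fold, edgeR adjusted p = 0.00423, lost under 1 of 19). The muscle miRNAs miR-133a-3p (log2 0.55, edgeR adjusted p = 0.124) and miR-499-5p (log2 −0.08, adjusted p = 0.821) did not pass. Of the other lists, 2 of 4 red blood cell, 3 of 7 leukocyte, 2 of 2 endothelial, 2 of 4 smooth muscle and 1 of 7 epithelial miRNAs were listed, each list holding at most 0.176% of established tags in any library. Among their defining markers, miR-144, miR-142 and miR-223 were not listed in any library. Others were listed but too scarce to test. The red blood cell miRNA miR-451-5p had 5, blank and 4 counts in IDD and blank, 3 and blank in Sham. The endothelial miRNA miR-126a-3p had 6, 5 and 5 in IDD and 10, 8 and 7 in Sham. The leukocyte miRNA miR-150-5p had 5, 4 and 3 in IDD and 3, 2 and 3 in Sham. The leukocyte miRNA miR-342-3p rose 2.53-fold (edgeR adjusted p = 0.000781, kept under 18 of 18 settings), whereas miR-146b-5p, also a leukocyte miRNA, missed the threshold (log2 −0.01, adjusted p = 0.975). The red blood cell miRNA miR-486 fell (log2 −0.39, edgeR adjusted p = 0.0065, lost under 4 of 19 settings). The epithelial miRNA miR-200a-3p was blank in all IDD libraries and had 27, 33 and 64 counts in Sham (edgeR adjusted p = 0.0214, lost under 6 of 18 settings). The liver miRNA miR-122-5p held 0.967% to 1.06% of established tags in IDD and 1.35% to 1.53% in Sham. Its level did not pass (log2 −0.04, edgeR adjusted p = 0.741), nor did it under any of 19 settings. The part of these cell types in the results on miR-199a and miR-214 was not tested. In bulk tissue, fewer cells of a type and less miRNA per cell cannot be told apart.

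rno-miR-199a-3p was the most abundant of the 3, ranking 20 of the 204 established miRNAs by mean level, and it was modestly higher in IDD. It had 882, 691 and 765 counts in IDD 1, 2 and 3 and 617, 668 and 415 counts in Sham 1, 2 and 3. In CPM, the field's depth-scaled count, over library totals adjusted with TMM, which assumes that most sequences do not change, it stood at 3412, 3533 and 3188 in IDD and at 2899, 2808 and 2340 in Sham. The IDD values all lay above the Sham values, with the gap of 290 CPM between IDD 3 and Sham 1 smaller than the spread among Sham libraries. Of the 131 sequences abundant enough to test, 66.4% did not overlap between the groups and 35.9% did so with IDD higher, so this separation is common in the table.

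The mean level rose from 2682 ± 300.1 to 3378 ± 175 CPM (SD, n = 3 per group). The fold change was 1.26, or 0.33 on the log2 scale (SE 0.11, edgeR's quasi-likelihood test, Benjamini-Hochberg adjusted p = 0.0226). An adjusted p below 0.05 was reached by 59.5% of tested sequences, and by 29.0% with IDD higher. These calls do not meet the assumption behind TMM that most sequences do not change. Among the 38 sequences that rose, the rise of miR-199a-3p was the 5th smallest, and the median rise was 0.80 on the log2 scale. Without Sham 3 the log2 fold change was 0.17 (adjusted p = 0.233), without Sham 2 it was 0.33 (adjusted p = 0.138) and without IDD 1 it was 0.32 (adjusted p = 0.0520), so the call rests on each of these libraries. It was also lost when libraries were scaled on established miRNAs alone (0.20, adjusted p = 0.154). The median of all tested sequences moved by 0.19 with library size alone and by −0.14 with scaling on established miRNAs. Measured from that median, miR-199a-3p stood 0.30 above it in the reported fit, 0.30 above with library size alone and 0.31 above with established miRNAs. A change of scaling moves all sequences nearly alike, so this distance was bound to hold and is no further evidence of a rise. With a library left out it was 0.26 to 0.40.

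**Figure D1:**
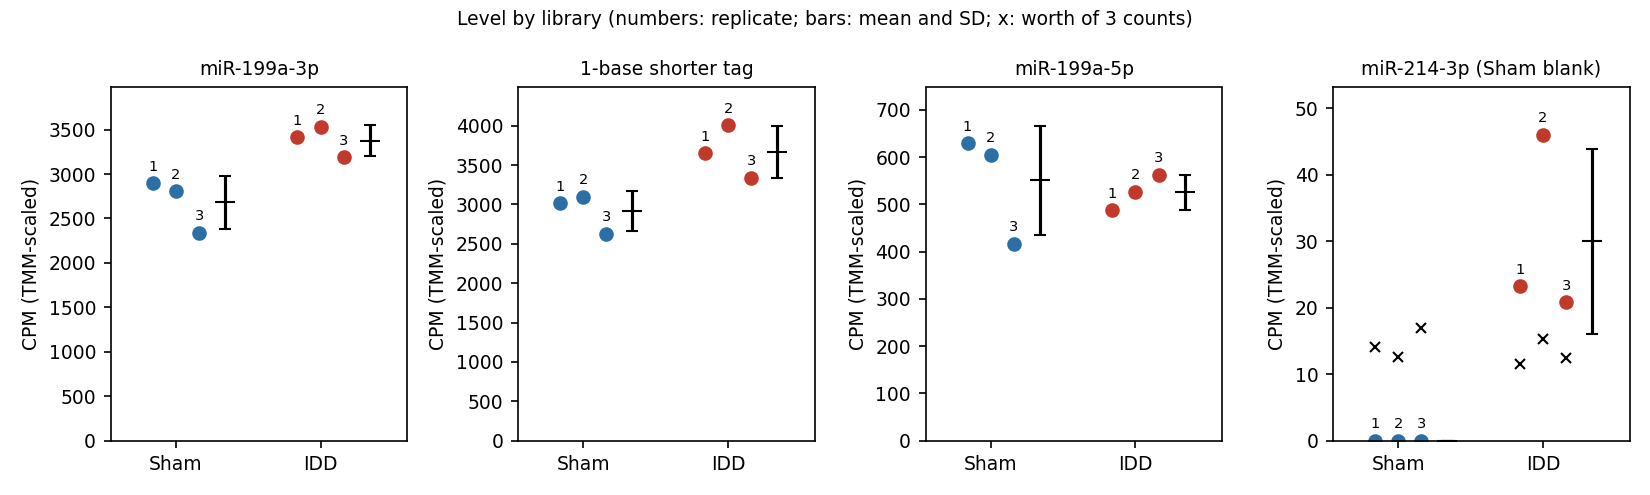
CPM with TMM scaling (vertical axes, each from 0) of miR-199a-3p, its 1-base shorter tag, miR-199a-5p and miR-214-3p in the Sham and IDD libraries. Points are libraries with their replicate number, bars are mean and SD, blanks are drawn at 0 and crosses mark what 3 counts are worth. The IDD libraries lie above the Sham libraries for miR-199a-3p and the shorter tag, overlap them for miR-199a-5p, and are the only libraries that list miR-214-3p.

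The 1-base shorter tag, with the same seed as miR-199a-3p, was slightly more abundant than the miRNA itself in every library. It had 944, 784 and 801 counts in IDD and 642, 737 and 466 in Sham. The excess over miR-199a-3p was 25 to 93 counts per library, and the ratio of the counts was 1.05 to 1.13 in IDD and 1.04 to 1.12 in Sham. Its fold change was 1.26 (log2 0.33, SE 0.11, adjusted p = 0.0230), and that of the summed counts was 0.33 on the log2 scale (SE 0.11, adjusted p = 0.0226). The ratio of the shorter tag to miR-199a-3p differed between the groups by −0.01 on the log2 scale (exact two-sided permutation test, p = 1). If tags were counted under both names, this ratio could hold steady whatever the ends did. It therefore cannot tell whether the end of the 3p arm shifted. In mouse and human, hairpins inside other dynamin genes, Dnm2 and Dnm1, also yield the miR-199 3p arm, and RefSeq places rat Dnm1 on chromosome 3. Whether the table counted some tags under both names, and from which hairpin they came, was not tested, so the level of miR-199a-3p is uncertain by the amount of the shorter tag.

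rno-miR-199a-5p, the other arm of the same hairpin, showed no difference that passed the test. It had 126, 103 and 135 counts in IDD and 134, 144 and 74 in Sham, and ranked 48 among established miRNAs. The levels were 487, 527 and 563 CPM in IDD and 630, 605 and 417 CPM in Sham. The groups overlapped, with Sham 3 the lowest of all 6 libraries and Sham 1 and 2 the highest. The mean was 526 ± 37.7 CPM in IDD and 551 ± 116 CPM in Sham (SD, n = 3 per group), a log2 fold change of −0.08 (SE 0.15, edgeR's quasi-likelihood test, adjusted p = 0.684). Its sign turned with the scaling, to 0.12 with library size alone (adjusted p = 0.474), and without Sham 3 it was −0.31 (adjusted p = 0.0627).

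**Figure D2:**
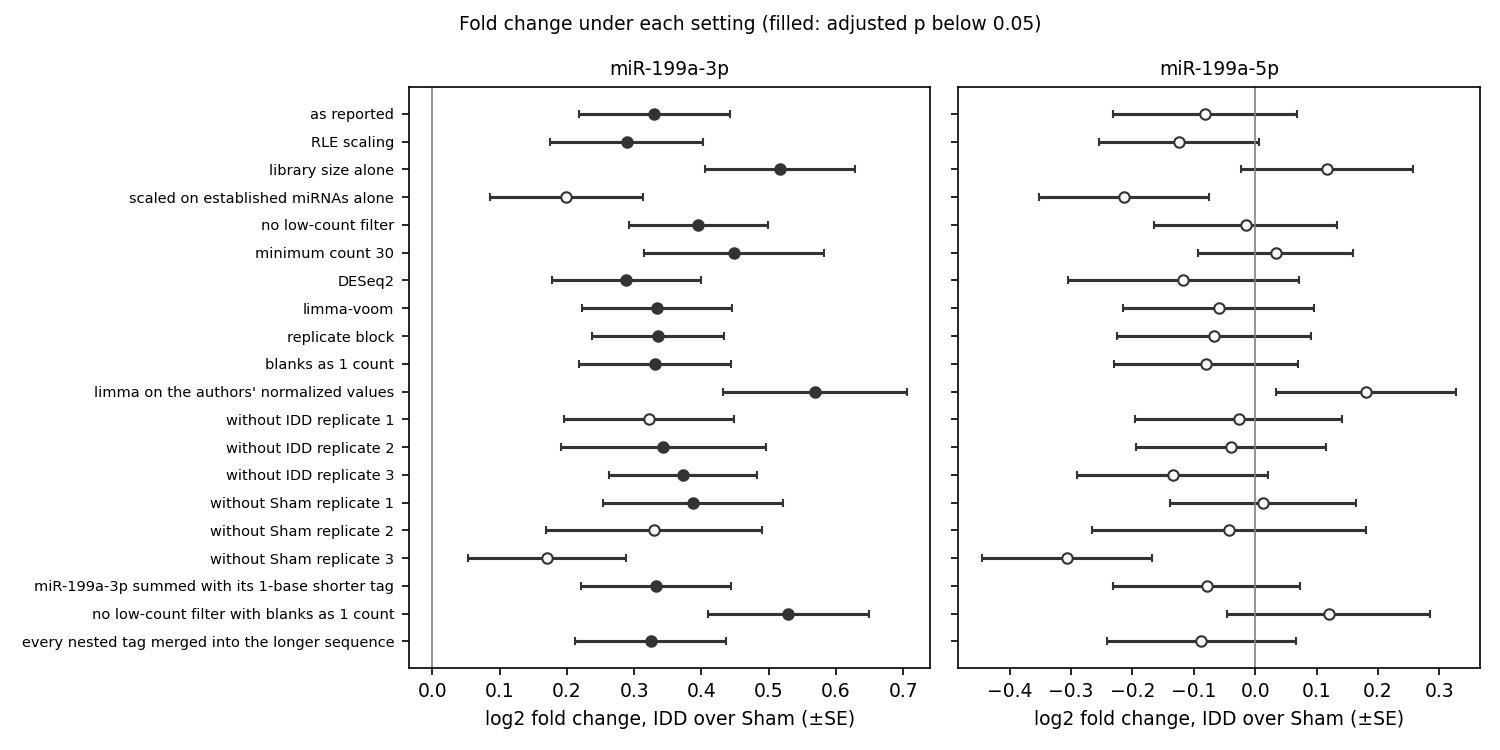
Log2 fold change of IDD over Sham (horizontal axes, bars are SE) for miR-199a-3p and miR-199a-5p under the reported fit and 19 alternatives, with filled points at an adjusted p below 0.05. miR-199a-3p stayed between 0.17 and 0.57 and miR-199a-5p between −0.31 and 0.18, on both sides of 0.

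A ratio of counts within a library does not depend on the scaling, and the arms of miR-199a were compared in this way. Any 3p tags from another hairpin would enter this ratio too, and their part in it was not tested. The 3p arm outnumbered the 5p arm in every library, by 7.0, 6.71 and 5.67 in IDD and by 4.60, 4.64 and 5.61 in Sham. The ratio was thus higher in each IDD library, but IDD 3 and Sham 3 nearly met. Over summed counts it was 6.42 in IDD (95% exact binomial interval 5.75 to 7.19) and 4.83 in Sham (4.30 to 5.43). These intervals cover counting error only and leave out the spread between libraries. They may be too narrow even for that error, since copies made by PCR are not independent molecules.

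The change in the log2 ratio was 0.38 (SE 0.22) and did not pass (limma over the 16 precursors with both arms tested, adjusted p = 0.154). By an exact two-sided permutation test of this ratio alone, p = 0.1, the smallest that 3 against 3 libraries allow. With the shorter tag as the 3p arm, or added to it, the change was 0.38 in each case (adjusted p = 0.188 and 0.172), and IDD 3 then fell below Sham 3. The arm ratio passed for 8 of the 16 precursors, or 50.0%, with changes of 0.65 to 2.91 in either direction, all larger than that of miR-199a. A rise of miR-199a-3p past the threshold beside no call for miR-199a-5p therefore does not show that the arms changed differently.

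**Figure D3:**
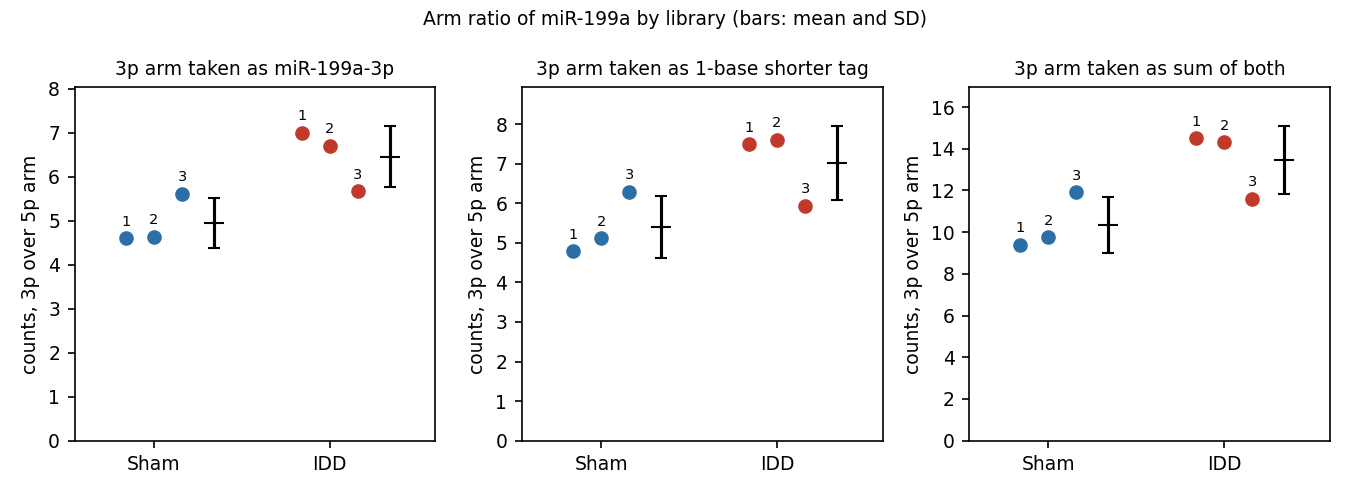
Ratio of 3p to 5p counts of miR-199a per library (vertical axes from 0), with the 3p arm taken as miR-199a-3p, as the 1-base shorter tag, and as their sum. Points are libraries with their replicate number, and bars are mean and SD. IDD 1 and 2 lie above all Sham libraries in each panel, whereas IDD 3 lies just above Sham 3 in the first panel and below it in the others.

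**Figure D4:**
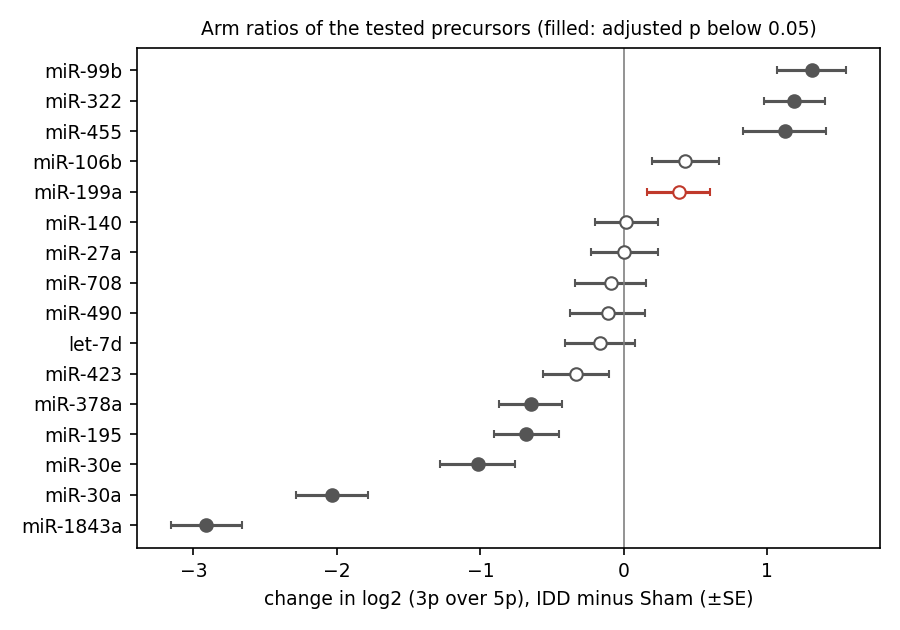
Change in log2 of the 3p over 5p ratio, IDD minus Sham (horizontal axis, bars are SE), for the 16 precursors with both arms tested, filled at an adjusted p below 0.05. miR-199a (red, open) stands at 0.38, above 0 but among the 8 precursors that did not pass.

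rno-miR-214-3p was listed in all IDD libraries and in none of the Sham libraries, at low counts. It had 6, 9 and 5 counts in IDD 1, 2 and 3, or 23.2, 46.0 and 20.8 CPM, and was blank in Sham 1, 2 and 3. The lowest count listed anywhere in the table is 2, so a blank can stand for 0 or 1. A floor of 3 counts was worth 12.6 to 16.9 CPM in a Sham library. The mean IDD level of miR-214-3p was 2.06-fold the mean of these Sham floors, a lower bound for the group means and not for single libraries. It leans on IDD 2, since the mean IDD level ran from 22.02 CPM without IDD 2 to 34.61 CPM without IDD 3. The lowest IDD library, at 20.8 CPM, lay only a little above the highest Sham floor of 16.9 CPM. With each blank read as 1, the summed counts of 20 against 3 gave a ratio of 6.03 after scaling, with a 95% exact binomial interval of 1.79 to 31.7 that again covers counting error only and not the spread between libraries.

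At the IDD level the 3 Sham libraries would together have held 18.1 tags of miR-214-3p, and at its IDD ratio to miR-199a-3p 14.5 tags. It was too scarce for the reported fit. With no filter on low counts edgeR's adjusted p was 0.00141, and 0.00205 with blanks read as 1, where its log2 fold change was 2.65 (SE 0.41). Of the 442 sequences, 285 passed in the first of these fits and 108 in the second, so such a call is common there. The SE of counts this low can be too small. Of the 204 established miRNAs 9, or 4.41%, were listed in every IDD library and blank in every Sham library, and 4 of these had at least the 20 counts of miR-214-3p. The opposite pattern held for 14. Over all 442 sequences the first pattern held for 67, or 15.2%.

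Within the IDD libraries miR-199a-3p outnumbered miR-214-3p by 147, 76.8 and 153. With Sham blanks read as 1, the ratio would be 415 to 668 in Sham, above every IDD library. At the floor of 3 counts, more than the 1 that a blank appears able to hold, it would be 138 to 223, and Sham 3 would lie below IDD 1 and 3. For miR-199a-5p over miR-214-3p the IDD ratios were 21.0, 11.4 and 27.0, against 74 to 144 in Sham with blanks as 1 and 24.7 to 48.0 at the floor. With 0.5 counts added to each number, both log2 ratios gave p = 0.1 (exact two-sided permutation test), the smallest possible. The same Sham blanks enter both ratios, so these tests add little to the listing pattern itself. With a blank read as 0 or 1, both ratios were higher in every Sham library than in any IDD library.

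The direction for the 3 miRNAs together depended on what they were measured against. Of all tags they held 0.411%, 0.423% and 0.421% in IDD and 0.296%, 0.323% and 0.288% in Sham, higher in every IDD library. Of established miRNA tags alone they held 0.495%, 0.544% and 0.518% in IDD and 0.598%, 0.599% and 0.513% in Sham, and the groups overlapped. The means were 0.519% ± 0.0241 in IDD and 0.570% ± 0.0496 in Sham (SD, n = 3 per group, exact two-sided permutation test, p = 0.3), so the mean share was lower in IDD. The same turn held for miR-199a-3p alone, at 0.446% ± 0.0196 and 0.473% ± 0.0329 of established tags (p = 0.3, exact permutation test). miR-199a-5p alone held 0.0616% to 0.0773% of established tags in IDD and 0.0776% to 0.107% in Sham, so that IDD 3 and Sham 3 almost touched (p = 0.1, exact permutation test, the smallest possible).

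The muscle miRNA miR-1b alone took 47.8% to 51.9% of established tags in IDD and 40.2% to 40.7% in Sham. With miR-1b left out of the total, the 3 miRNAs held 1.04% ± 0.0560 in IDD and 0.956% ± 0.0842 in Sham (SD, n = 3 per group, exact permutation test, p = 0.3), and the direction turned again, with overlapping groups. Of all tags without those ending in CCA, a total chosen after seeing the data, they held 0.506% ± 0.0227 in IDD and 0.543% ± 0.0485 in Sham (SD, n = 3 per group, exact permutation test, p = 0.3), again lower in IDD with overlapping groups. The choice of denominator thus set the sign, and of these 4 denominators only all tags separated the groups.

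**Figure D5:**
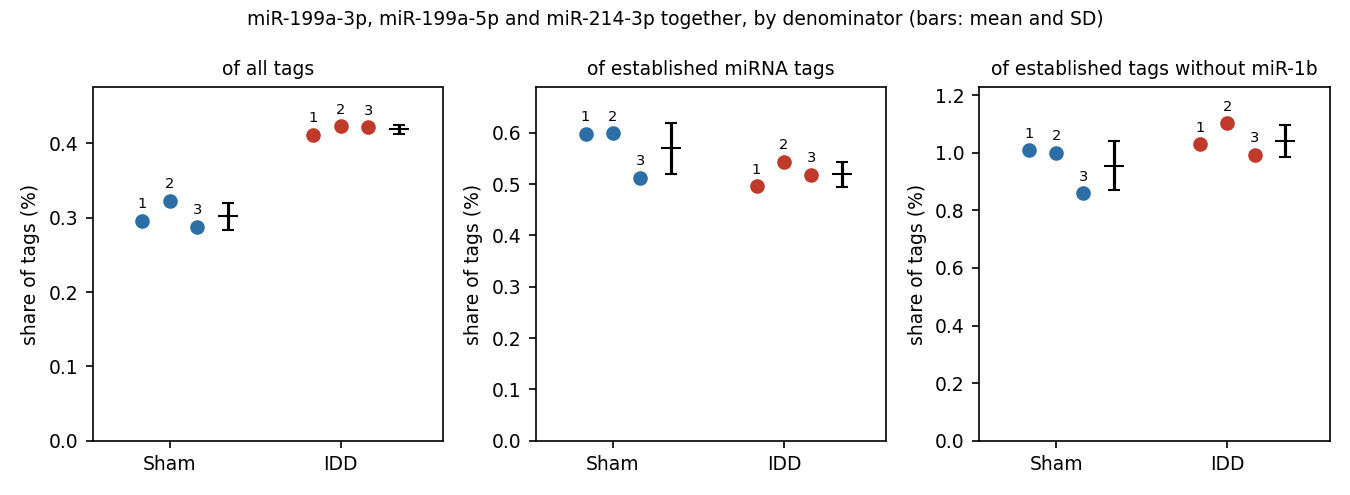
Share of tags (percent, vertical axes from 0) held by miR-199a-3p, miR-199a-5p and miR-214-3p together, of all tags, of established miRNA tags and of established tags without miR-1b. Points are libraries with their replicate number, and bars are mean and SD. The IDD mean is above the Sham mean in the first and last panels and below it in the middle one, and the groups overlap in the last 2.

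Other miRNAs linked to mesenchyme and fibroblasts moved both ways. Of 22 listed for this comparison, without the 3 above, 17 were found and 13 were abundant enough to test, of which 6 rose, 2 fell and 5 did not pass. Their median log2 fold change was 0.21, against 0.03 over all 131 tested sequences, where 29.0% rose and 30.5% fell. The list was chosen with earlier results of these data known, so this comparison is a description only. The largest rises among them were those of miR-99a-5p (2.52-fold, edgeR adjusted p = 0.0101, lost under 3 of 18 settings), miR-21-5p (2.34-fold), which is known to rise in fibrosis, and miR-29a-3p (2.26-fold), which represses collagen mRNAs, each larger than the 1.26-fold of miR-199a-3p. miR-152-3p, which represses the DNA methyltransferase Dnmt1, rose 1.76-fold from 2228 ± 221 to 3915 ± 287 CPM (SD, n = 3 per group, edgeR adjusted p = 5.05e-05). miR-24-3p (1.42-fold) and miR-22-3p (1.19-fold) also rose, the latter a call lost under 10 of 19 settings.

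miR-100-5p fell (log2 −0.42, SE 0.11) and miR-23b-3p fell (−0.57, SE 0.19), calls lost under 3 of 19 and 8 of 18 settings. miR-27b-3p (0.18, adjusted p = 0.155), miR-125b-5p (0.18, adjusted p = 0.209), miR-218a-5p (0.21, adjusted p = 0.139), miR-143-3p (−0.45, adjusted p = 0.112) and miR-10b-5p (−0.50, adjusted p = 0.193) did not pass. miR-24-3p also has a shorter provisionally named tag in the table, so its level is uncertain in the same way as that of miR-199a-3p.

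The established miRNAs whose levels across the 6 libraries were most like those of miR-199a-3p were let-7f-5p (Pearson r = 0.946 of log2 CPM), miR-195-5p (r = 0.942) and miR-1-3p (r = 0.917), of 106 compared. For miR-199a-5p they were miR-106b-3p (r = 0.789), miR-708-3p (r = 0.693) and miR-148a-3p (r = 0.657). The r between the arms of miR-199a was 0.318. These values describe 6 libraries in 2 groups that share their scaling, and none is a test. The choice by correlation favours miRNAs with the same group difference, so their log2 fold changes, 0.36, 0.80 and 0.74 for those most like miR-199a-3p and 0.02, −0.01 and 0.15 for those most like miR-199a-5p, are a description only. miR-214-3p, blank in Sham, was left out.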

How the data were processed

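Small RNA libraries were size-selected for miRNAs and sequenced on an Illumina instrument, per the labels' protocols. The first deposited table holds raw tag counts, 1 column per library, as its header states. Novoalign 3.02.12, cutadapt 1.9.3 and Rnor_6.0 appear in the submitters' processing notes without roles, and the miRNA caller was not given in the sources used here. Another deposited table holds counts normalized by the authors and rounded, treated as a score and used as an alternative.

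The 491 rows were reduced to 442 distinct sequences, and blanks were set to 0. filterByExpr at a minimum count of 10 kept 131, which were TMM-scaled and tested in edgeR 4.0.16 (R 4.3.3, robust quasi-likelihood, two-sided, Benjamini-Hochberg, threshold 0.05). The SE was derived by dividing the log2 fold change by the root of the F statistic. Arm ratios (0.5 counts added) were tested with limma 3.58.1, and single ratios and shares with exact permutation tests. DESeq2 1.42.0 was an alternative. The fits were run on simulated data with the direction of each level change drawn at random and no built-in shift in the share of established tags. Those runs therefore do not test the scaling used here. Sequence matches are to RefSeq (GRCr8).

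Deviations of same-numbered libraries from their group means correlated weakly, at 0.111, 0.112 and 0.204. Those of differently numbered libraries ran from −0.214 to 0.109, so these values do not settle whether the numbers mark pairs. No label states pairs, and the 0.109 was that of IDD 2 with Sham 1. The reported tests are unpaired. A block by replicate number was an alternative, under which the smallest p of an exact permutation test is 0.25. The members and lists were chosen with earlier results of these data known. Named miRNAs are the members, list members past the threshold, and the 3 most correlated established miRNAs per member. The 1-base shorter tag falls under the rule for shared seeds. List members that did not pass or were too scarce to test were named after their values were seen.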

Additional observations from a re-analysis of the deposited data

How the results depend on the processing

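The rise of miR-199a-3p kept its direction under all 19 alternatives to the fit (0.17 to 0.57, adjusted p = 0.00153 to 0.233). It lost its call under 4, namely scaling on established miRNAs alone (0.20) and leaving out IDD 1, Sham 2 or Sham 3 (range over single libraries 0.17 to 0.39). As a plain share of established tags, outside these alternatives, miR-199a-3p was lower in IDD (0.446% against 0.473%, exact permutation test, p = 0.3). miR-199a-5p never passed and turned positive with library size alone (0.12), a minimum count of 30 (0.033), limma on the authors' normalized values (0.18), no filter with blanks as 1 (0.12) and without Sham 1 (0.0125, single-library range −0.31 to 0.0125). The arm ratio did not pass under any of 13 alternatives (0.32 to 0.48). The summed share of established tags changed by −0.0508 percentage points, and turned to 0.116 over all tags and 0.0863 without miR-1b. Calls numbered 285 with no filter (117 higher, 168 lower), 60 higher with blanks as 1 and no filter, and 24 to 36 higher with a library left out. Calls split 38 higher and 40 lower as reported, 52 and 29 with library size alone, 27 and 45 scaled on established miRNAs, and 56 and 28 on the authors' values. With the replicate number as a block, miR-199a-3p gave 0.34 (adjusted p = 0.00886), the arm ratio 0.38 (adjusted p = 0.184), and the calls on these miRNAs were unchanged; exact tests of both ratios to miR-214-3p then gave p = 0.25, the smallest possible. The cause of each change was not tested. Alternatives with the shorter tag were chosen after seeing the data. Depth limits miR-214-3p, whose 5 to 9 counts lie near the floor.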

Other observations

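The 442 sequences held 5 pairs in which one listed sequence is the start of a longer one, miR-199a-3p and its 1-base shorter tag among them. For miR-24-3p a tag shorter by 2 bases outnumbered the miRNA in every library, by 2.56 to 2.86. For miR-378a-3p a tag shorter by 3 bases stayed below it, with a mean ratio of 0.173 in IDD and 0.263 in Sham. These pairs were looked at after their values were seen, and the ratios of miR-24-3p and miR-378a-3p were not tested between the groups.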
